A study of Mus musculus with 8 samples.

Results

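The region described here is the 310 kb stretch of mouse chromosome 2 that holds Wt1, Them7 and Rcn1, as seen in contact libraries from 3 viewpoints at the Pax6 locus, named Pax6P1, Pax6P0 and Paupar. Its members are the restriction fragments whose midpoint lies between 105.10 and 105.41 Mb of chromosome 2 in mm10. The 24 files of these viewpoints listed 689 such fragments, of 267666 fragments listed anywhere in the genome. They covered 307.297 kb of the stretch and had a median width of 294 bp. The stretch was chosen by the read counts over Wt1, which had been seen to be fewer in NSC than in ES libraries from Paupar, so the values of those groups over Wt1, and comparisons with them there, are given as a description with no p-value.

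The assay ligates crosslinked chromatin and counts, for a chosen viewpoint, the reads on restriction fragments elsewhere. N2a is a mouse neuroblastoma cell line, grown in DMEM with FBS. The neurons were differentiated from E14.5 neural stem cells on poly-D-lysine in Neurobasal with B27, the NSC cultures were E14.5 cortical stem cells kept in StemPro NSC medium with bFGF and EGF, and ES are embryonic stem cells grown on gelatin in serum with LIF. Each of the 4 cell types had 2 libraries, no treatment or engineered allele is named for any of them, and the labels do not say whether the 2 libraries came from separate cultures, so every p-value below measures only the spread between these libraries. The series' design text describes the study as an examination of the viewpoints across the 4 cell types. The labels could not be checked against marker genes, because no expression was measured.

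A chromosome folds so that a promoter meets sequences far along the same molecule, and the number of ligation reads falls with distance from the viewpoint. Pax6 encodes a paired-box transcription factor of eye, brain and pancreas development, Pax6P0 and Pax6P1 are promoters of that gene, and Paupar is a long noncoding RNA gene beside it. Wt1 encodes a zinc-finger transcription factor of kidney and gonad development, Wt1os is a noncoding RNA gene antisense to it, and Rcn1 encodes reticulocalbin, a calcium-binding protein of the endoplasmic reticulum. In humans the counterparts of Wt1, Rcn1 and Pax6 lie together in the region whose deletion causes WAGR syndrome, with Wilms tumour and absent irises. Fewer cells with a contact and a rarer contact in every cell cannot be told apart by this assay.

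On the RefSeq annotation of GRCm38.p6, Wt1 spans 105126529 to 105173614, Them7 spans 105224342 to 105379860 and Rcn1 spans 105385948 to 105399319. Wt1os runs from 105076538 to 105126510, so that 26511 bp of it lie in the stretch. In the RefSeq promoters checked, which left out a chromosome, each border between adjacent listed fragments was at the letters GATC, in 609 of 609 cases. That motif reads the same on both strands. The promoters of Wt1os and Them7 are shown because they show how large the members are against a regulatory element: each is 300 bases, 250 before and 50 after the gene's start. They are printed 5′ to 3′ on the gene's own strand with any GATC in capitals, and they lie at chr2:105126461-105126760 on the minus strand for Wt1os and at chr2:105224092-105224391 on the plus strand for Them7.
Wt1os: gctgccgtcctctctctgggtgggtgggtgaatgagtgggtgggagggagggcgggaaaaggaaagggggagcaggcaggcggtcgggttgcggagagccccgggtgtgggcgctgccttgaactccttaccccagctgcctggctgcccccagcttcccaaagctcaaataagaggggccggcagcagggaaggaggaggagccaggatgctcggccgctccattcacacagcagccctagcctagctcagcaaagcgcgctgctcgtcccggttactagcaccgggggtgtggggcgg
Them7: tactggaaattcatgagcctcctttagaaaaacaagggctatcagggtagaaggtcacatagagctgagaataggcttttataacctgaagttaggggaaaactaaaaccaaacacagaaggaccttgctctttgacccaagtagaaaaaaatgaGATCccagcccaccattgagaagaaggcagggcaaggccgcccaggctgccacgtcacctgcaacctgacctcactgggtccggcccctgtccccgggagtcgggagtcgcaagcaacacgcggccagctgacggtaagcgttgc

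The Wt1os promoter held no GATC, 66.7% G or C and 16 CpG dinucleotides, against a median of 52.7% and 7 over all 32851 RefSeq promoters. It lay inside 1 fragment, 105125692 to 105126793, which also held the lower end of Wt1 and therefore cannot be split between those genes. The Them7 promoter held 1 GATC, 52.7% G or C and 10 CpG, and fell on 2 fragments between 105224062 and 105224734. GATC occurred in 48.0% of all RefSeq promoters of this length.

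Over the whole stretch, N2a libraries held the smallest share of contacts. Shares are the reads of the stretch as a percent of the file's reads on chromosome 2 beyond 5 kb of the viewpoint, here called cis reads. The stretch held between 509 and 4276 reads per file, and 95% Wilson intervals of the shares reached at most 0.413 percentage points to either side. These intervals cover counting error only, since no molecular identifiers tell copies of 1 molecule apart. They also take every listed read as separate, while 1 read may be counted on several fragments, so they may be too narrow. From Pax6P1 the shares of libraries 1 and 2 were 2.14% and 3.18% in N2a, 5.77% and 4.52% in neurons, 5.48% and 4.40% in NSC, and 5.56% and 6.63% in ES. From Pax6P0 they were 2.996% and 3.12% in N2a, 6.03% and 4.60% in neurons, 4.90% and 4.44% in NSC, and 6.95% and 6.44% in ES. From Paupar they were 3.32% and 3.67% in N2a, 6.08% and 4.30% in neurons, 4.88% and 4.41% in NSC, and 5.86% and 6.41% in ES. Both N2a libraries lay below every library of the other cell types from all 3 viewpoints, while the neuron and NSC values overlapped from each.

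As means over the libraries, N2a held 2.66% ± 0.736 from Pax6P1, 3.06% ± 0.0858 from Pax6P0 and 3.50% ± 0.247 from Paupar (SD, n = 2), against 6.09% ± 0.758, 6.69% ± 0.362 and 6.13% ± 0.390 in ES (SD, n = 2). The ratio of N2a to ES was 0.437 to 0.571 over the viewpoints, and that of N2a to NSC was 0.539 to 0.753. Neurons held 5.14% ± 0.879, 5.32% ± 1.01 and 5.19% ± 1.25 (SD, n = 2), which was 0.795 to 0.847 of the ES mean. Both neuron libraries lay below both ES libraries from Pax6P0 and overlapped them from Pax6P1 and Paupar. Neuron means were 1.04 to 1.14 of those in NSC. A comparison of 2 libraries with 2 by exact permutation cannot give a two-sided p below 0.333, so no such test was made of these sums.

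The cell types also differed in how many cis reads lay near the viewpoint. Between 42.5% and 53.9% of the cis reads of N2a files were within 1 Mb of it, against 57.9% to 60.9% in neurons, 57.4% to 65.0% in NSC and 52.0% to 57.9% in ES. With the reads within 1 Mb as the total, N2a still lay below all ES, NSC and neuron libraries from each viewpoint. The ratio of N2a to ES was then 0.504 to 0.636, and that of N2a to NSC 0.699 to 0.896. On that total both neuron libraries lay below both ES libraries from Pax6P1 as well as from Pax6P0, each at a ratio of 0.741. Files listed 19760 to 129499 reads, and the libraries' totals over the 3 viewpoints ran from 68633 in NSC library 1 to 351830 in ES library 1.

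**Figure D1:**
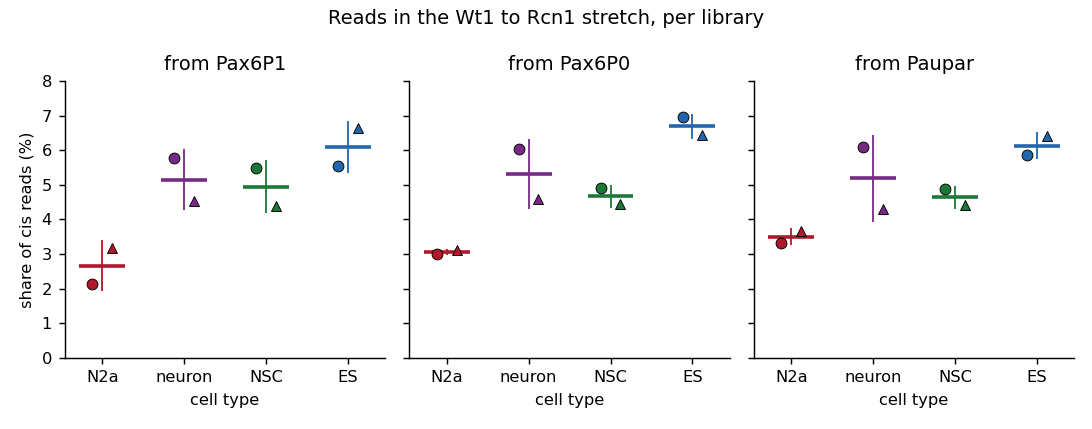
Share of cis reads (%) that fell in the Wt1 to Rcn1 stretch, by cell type and viewpoint, with circles for library 1, triangles for library 2, horizontal bars for the mean and vertical lines for 1 SD (n = 2). The N2a points lie between 2.14% and 3.67%, below all points of the other cell types.

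The fragments of the stretch were rarely read from viewpoints on other chromosomes. Files of the same libraries from viewpoints at Sox2 and Pou3f3 held between 0 and 25 reads in the stretch, and 9 of those 16 files held none. Within the Pax6-locus files, 190 to 514 of the 689 fragments were listed per file. A fragment was listed in a median of 12 of the 24 files, 228 fragments were seen in all 8 libraries and none in all 24 files. Of the 689 fragments, 88.5% were listed in some N2a file, 96.1% in some neuron file, 94.0% in some NSC file and 97.7% in some ES file. A deeper library lists more fragments, and depth was not matched for these shares. Wider fragments held larger shares, with a Spearman correlation across fragments of 0.230 to 0.274, which is a description over fragments that share libraries.

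Wt1, the protein-coding gene of the stretch farthest from the viewpoints, was read less in N2a and NSC than in ES libraries from each viewpoint. Its density is given as the percent of cis reads per 100 kb of gene. From Pax6P1, Wt1 held 0.747 and 1.02 in N2a, 1.87 and 0.229 in neurons, 0.708 and 0.487 in NSC, and 1.69 and 2.95 in ES. From Pax6P0 it held 0.259 and 1.04 in N2a, 1.46 and 0.705 in neurons, 1.72 and 0.813 in NSC, and 2.13 and 2.11 in ES. From Paupar it held 0.802 and 0.760 in N2a, 1.11 and 0.917 in neurons, 0.997 and 0.774 in NSC, and 1.93 and 2.13 in ES. The 2 ES libraries were the highest of the 8 over Wt1 from Pax6P0 and Paupar, and from Pax6P1 neuron library 1 lay between them.

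The mean share over Wt1 in N2a was 0.307 to 0.385 of that in ES, with both N2a libraries below both ES libraries from each viewpoint. In neurons it was 0.453 to 0.510 of that in ES, without overlap from Pax6P0 and Paupar and with overlap from Pax6P1, where the neuron libraries had 0.881% and 0.108% of the cis reads. In NSC, the group that chose the stretch, it was 0.258 to 0.599 of that in ES. The ES libraries that entered that choice are the ones these ratios rest on. Against NSC, which was low over Wt1 by that choice, N2a had 0.513 to 1.48 of the mean share and overlapped from Pax6P0 and Paupar. From Pax6P1 both N2a libraries lay above both NSC libraries over Wt1.

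Them7, a protein-coding gene named for the thioesterase superfamily, held most reads of the stretch, a median of 2.91% of the cis reads per file. Its density from Pax6P1 was 0.659 and 0.928 per 100 kb in N2a, 2.34 and 2.01 in neurons, 2.56 and 1.70 in NSC, and 1.86 and 2.11 in ES. From Pax6P0 it was 1.17 and 1.205 in N2a, 2.28 and 2.01 in neurons, 1.86 and 1.81 in NSC, and 2.38 and 2.32 in ES. From Paupar it was 1.27 and 1.01 in N2a, 2.59 and 1.67 in neurons, 1.88 and 1.65 in NSC, and 2.06 and 2.33 in ES. N2a lay below all other libraries over Them7 from all 3 viewpoints. Its mean share was 0.400 to 0.519 of that in ES, 0.373 to 0.647 of that in NSC and 0.364 to 0.555 of that in neurons. Neurons had 0.912 to 1.10 of the ES mean there and overlapped ES from Pax6P1 and Paupar.

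Over Rcn1, the nearest of these genes to Pax6, the cell types overlapped in most comparisons. From Pax6P1 it held 1.51 and 2.45 per 100 kb in N2a, 2.09 and 3.86 in neurons, 3.46 and 5.77 in NSC, and 3.93 and 2.65 in ES. From Pax6P0 it held 3.91 and 2.35 in N2a, 4.10 and 2.33 in neurons, 1.82 and 2.61 in NSC, and 3.28 and 2.89 in ES. From Paupar it held 2.42 and 2.41 in N2a, 2.59 and 3.68 in neurons, 2.58 and 4.32 in NSC, and 3.02 and 2.39 in ES. The mean share over Rcn1 in N2a was 0.602 to 1.01 of that in ES and lay lower without overlap from Pax6P1 alone, and neurons, at 0.905 to 1.16 of ES, overlapped ES from all 3 viewpoints. These values rest on 27 to 288 reads per file.

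Per length, Wt1 held fewer reads than Rcn1 in 23 of the 24 files, Wt1 being the farther from the viewpoints. The ratio of the Wt1 density to the Rcn1 density ran between 0.0662 and 0.494 in N2a, 0.0593 and 0.893 in neurons, 0.0843 and 0.947 in NSC, and 0.429 and 1.11 in ES. The file in which Wt1 exceeded Rcn1 was that of ES library 2 from Pax6P1.

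**Figure D2:**
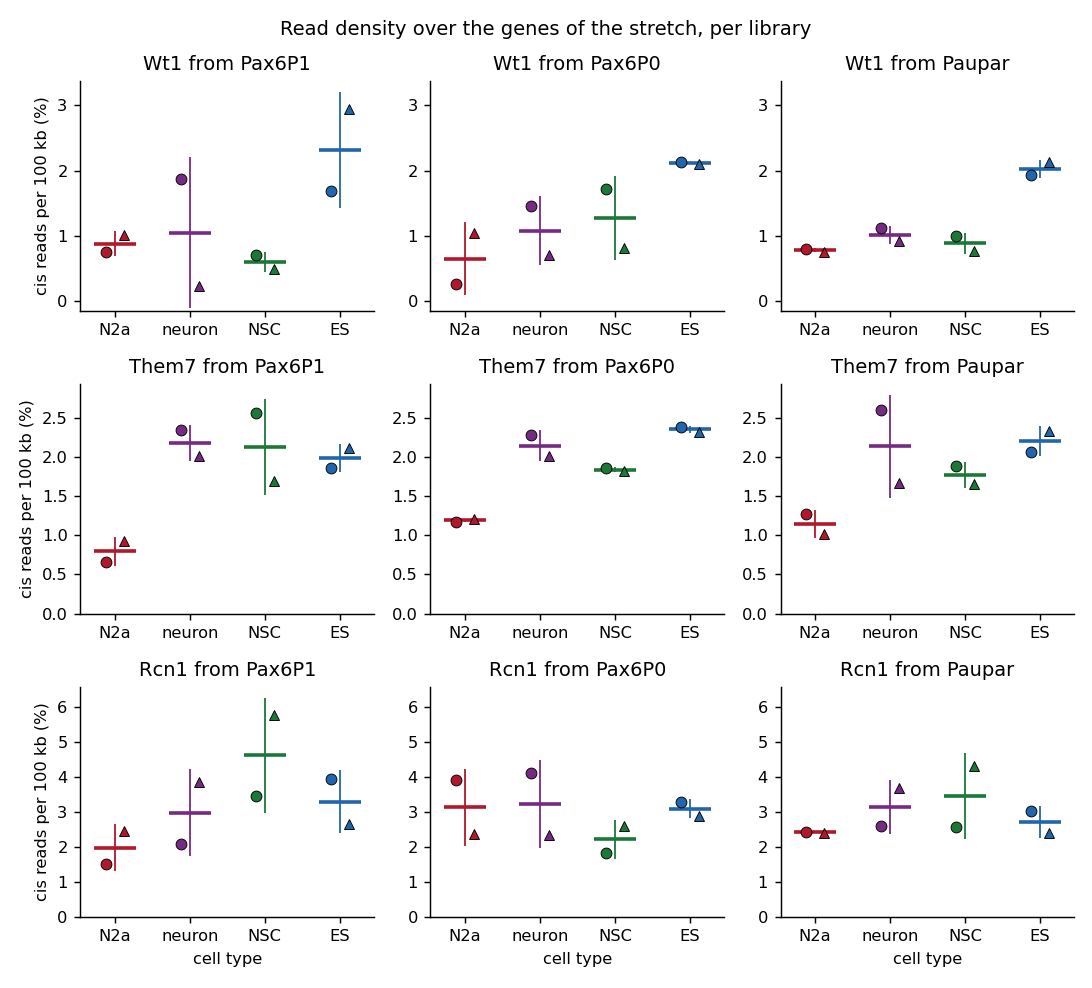
Percent of cis reads per 100 kb over Wt1, Them7 and Rcn1 (rows) from each viewpoint (columns), with circles for library 1, triangles for library 2, horizontal bars for the mean and vertical lines for 1 SD (n = 2). N2a lies lowest over Them7 from all 3 viewpoints, and N2a and ES overlap over Rcn1 from Pax6P0 and Paupar.

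Along the stretch, in the mean over the 8 libraries, each of the 5 windows of 31 kb nearest a viewpoint held more than each of the 5 farthest. Single cell types did not all follow that order. From Pax6P1 the N2a mean was 0.202% in chr2:105255000-105285999, among the 5 nearest. It was 0.374% in chr2:105131000-105161999, among the 5 farthest. In ES the means of those windows were 0.501% and 0.675%. Means did not fall steadily with distance either. From Pax6P1 the neuron mean was 0.954% in chr2:105317000-105347999, higher than in the window nearest the viewpoint. From Pax6P0 the ES mean was 0.286% in chr2:105193000-105223999 between Wt1 and Them7, lower than in the farthest window. The window at the Rcn1 end, chr2:105379000-105409999, held on average 0.568% of the cis reads from Pax6P1 in N2a, 0.687% in neurons, 0.950% in NSC and 0.819% in ES. The window over the lower end of Wt1, the 31 kb up to 105130999, held 0.161% in N2a, 0.296% in neurons, 0.237% in NSC and 0.671% in ES. From Pax6P0 that window at the Wt1 end held 0.070% in N2a, 0.238% in neurons, 0.291% in NSC and 0.820% in ES. From Paupar it held 0.278% in N2a, 0.329% in neurons, 0.279% in NSC and 0.483% in ES. ES means over that window were thus the highest of the 4 cell types from every viewpoint.

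**Figure D3:**
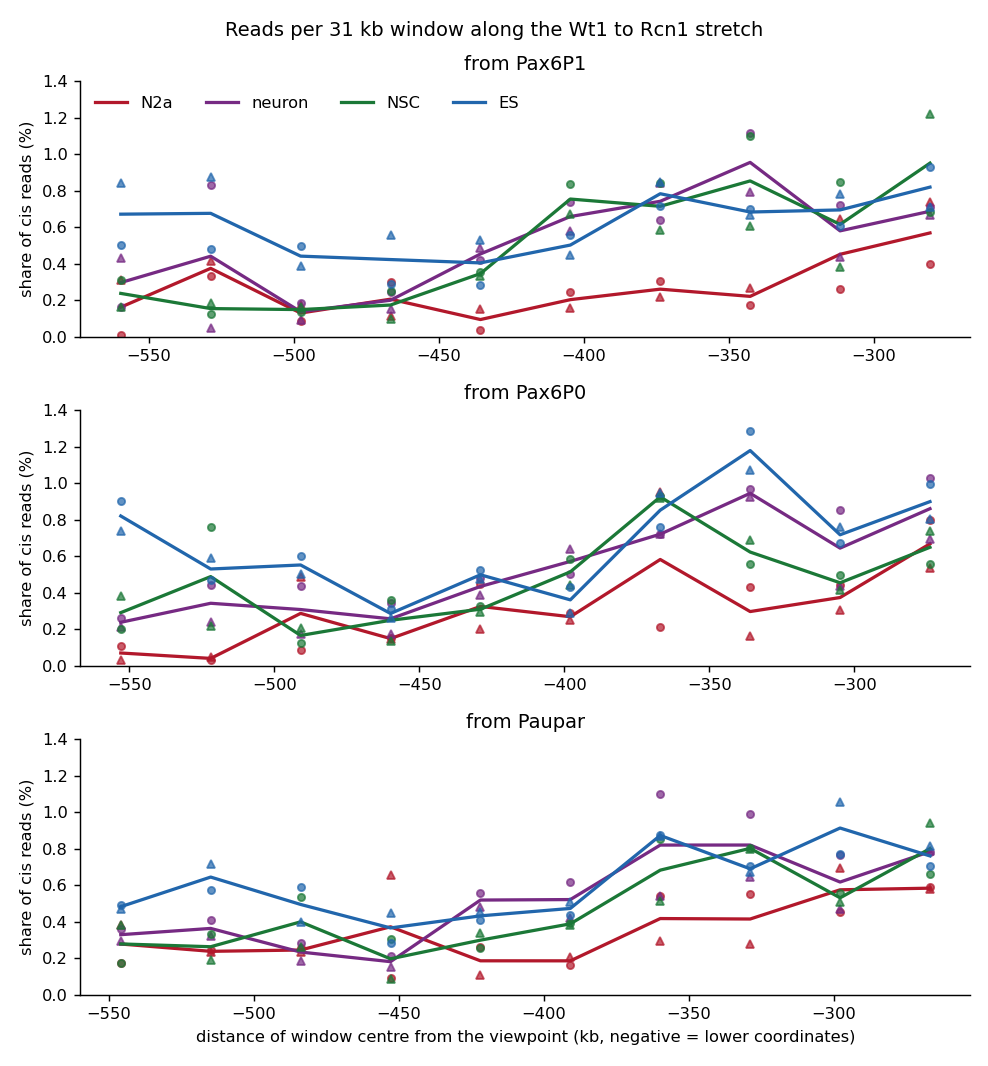
Share of cis reads (%) per 31 kb window of the stretch against the distance of the window's centre from the viewpoint (kb), with lines for cell-type means, circles for library 1 and triangles for library 2. The Wt1 end is at the left and the Rcn1 end at the right, and the N2a means from Pax6P1 reach at most 0.568%.

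Counts per window were tested with edgeR's quasi-likelihood test in 1 model per viewpoint over all windows within 1 Mb, with p-values adjusted by Benjamini and Hochberg over every window tested and a threshold of 0.05. All contrasts against ES share the ES libraries, and all contrasts against NSC share the NSC libraries. Because ES was high and NSC low over Wt1 by the choice of the stretch, windows over Wt1 are counted below but described without a p-value. Window counts are sums over the 3 viewpoints, which were read in the same libraries. The 30 windows of 31 kb in the stretch are thus 10 windows, each seen from 3 viewpoints. Calls on 1 window from different viewpoints are not separate regions. Counts over all windows are such sums too. In 31 kb windows, N2a fell against ES in 7 of the 30 windows of the stretch and rose in none. Of all 190 windows, 15.8% changed and 14.2% fell. Of the 7, 3 lay over Wt1 and 4 over Them7. Because the ES values over Wt1 chose the stretch, the 7 of 30 cannot be compared with the share of all windows. The fitted change was below 0 in 29 of the 30, windows over Wt1 included. N2a fell against NSC in 4 of 30 windows, 1 of them over Wt1, where 13.2% of all windows did. Neurons changed in 0 of 30 windows against ES and 0 of 30 against NSC by edgeR, as in 0% of all windows. At an unadjusted p under 0.05 they passed in 3 and 0 of the 30, beside 14 and 6 of all 190. DESeq2 also called 0 in both neuron comparisons.

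The median log2 change of the windows of the stretch in N2a against ES was -1.45 from Pax6P1, -0.94 from Pax6P0 and -0.90 from Paupar, beside -0.43, -0.46 and -0.56 over all windows tested. With TMM factors, which moved the medians of all windows to -0.04, -0.07 and -0.08, the stretch was at -1.03, -0.56 and -0.43. Against NSC the medians were -0.63, -0.68 and -0.57 in the stretch, beside -0.56, -0.56 and -0.47 over all windows. All these medians include the windows over Wt1, where ES was high and NSC low by the choice of the stretch.

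Over Wt1 from Pax6P0, the window chr2:105131000-105161999 held 8 and 20 reads in N2a, 145 and 59 in neurons, 84 and 96 in NSC, and 289 and 151 in ES, or 0.0315% and 0.0484% of cis reads in N2a against 0.470% and 0.590% in ES. The neighbouring window up to 105130999, over Wt1os and the start of the Wt1 span, held 28 and 12 reads in N2a, 86 and 52 in neurons, 22 and 168 in NSC, and 555 and 189 in ES. N2a reads were the fewest of the 4 cell types in the first of these windows, and in the second N2a had 0.110% and 0.0290% of cis reads against 0.198% and 0.383% in NSC. The fitted log2 change in N2a against ES was -3.70 in the first (SE 0.73) and -3.59 in the second (SE 0.70). Neither was past the threshold without ES library 1, at -3.85 and -3.43, or without ES library 2, at -3.53 and -3.72. Against NSC the change in the first window was -3.55 (SE 0.73), and it was not past the threshold without NSC library 1, at -2.42, or without either ES library, at -3.56 each.

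From Paupar, the same Wt1 window held 76 and 144 reads in N2a, 188 and 111 in neurons, 35 and 94 in NSC, and 410 and 241 in ES. In share of cis reads that was 0.243% and 0.233% in N2a against 0.576% and 0.714% in ES, and the fitted log2 change was -1.44 (SE 0.43). It was not past the threshold without N2a library 1, at -1.47, either neuron library, at -1.44 each, ES library 1, at -1.58, or ES library 2, at -1.27. The same held with TMM factors, at -0.95, in DESeq2, at -0.87, with reads within 1 Mb as the total, at -1.28, and with the fewest reads, at -1.20. From Pax6P1 no window over Wt1 passed in any of the tested comparisons.

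Over Them7, 4 further tests of N2a against ES passed, on 3 windows. The window chr2:105317000-105347999 held 46 and 114 reads from Pax6P1 in N2a, 411 and 242 in neurons, 145 and 209 in NSC, and 370 and 147 in ES, and in share of cis reads both N2a values, 0.172% and 0.269%, lay below the 0.698% and 0.667% of ES. There N2a fell against ES by 1.62 on the log2 scale from Pax6P1 (SE 0.44, edgeR adjusted p = 0.00924) and by 2.00 from Pax6P0 (SE 0.44, edgeR adjusted p = 0.0128). From Pax6P1 the adjusted p was 0.0574 without N2a library 1, 0.0548 without ES library 1 and 0.0753 in DESeq2, and from Pax6P0 it was 0.153 without ES library 1, 0.0791 without ES library 2 and 0.0556 with TMM factors. Against NSC the window fell by 1.94 from Pax6P1 (SE 0.44, edgeR adjusted p = 0.00204), with 0.0808 without NSC library 1.

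The neighbouring windows of Them7 also fell in N2a against NSC. In that comparison the 4 calls among the 30 windows of the stretch were near the 13.2% of all windows. The falls are therefore not particular to the stretch. Those at chr2:105286000-105316999 and chr2:105255000-105285999 held 81 and 92 and then 66 and 67 reads from Pax6P1 in N2a, against 111 and 202 and then 110 and 232 in NSC. In share of cis reads the N2a values, at 0.303% and 0.217% and then 0.247% and 0.158%, lay below those of NSC, at 0.842% and 0.586% and then 0.834% and 0.673%. The fall was 1.45 (SE 0.45, edgeR adjusted p = 0.0235) in the first and 1.90 (SE 0.52, edgeR adjusted p = 0.00835) in the second against NSC, on the log2 scale. Without NSC library 1 the adjusted p was 0.119 and 0.0808, with TMM factors 0.209 and 0.0899, and with reads within 1 Mb as the total 0.162 and 0.0693. For the first window it was also 0.195 in DESeq2, 0.0749 without N2a library 2, 0.0506 without ES library 1, 0.0529 without ES library 2 and 0.0532 with the replicate number as a block, and for the second 0.0755 with the fewest reads.

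Against ES, the window from 105286000 fell by 1.59 from Pax6P1 (SE 0.45, edgeR adjusted p = 0.0105), and the adjusted p was 0.0548 without ES library 1, 0.120 without ES library 2, 0.0862 with TMM factors and 0.0939 in DESeq2. The window from 105255000 fell by 1.34 from Paupar (SE 0.42, edgeR adjusted p = 0.0311). There it was 0.0692 with reads within 1 Mb as the total, 0.0678 with the fewest reads, 0.128 without N2a library 1, 0.0736 and 0.0719 without either neuron library, 0.138 without ES library 1, 0.230 without ES library 2, 0.188 with TMM factors and 0.145 in DESeq2. All these alternatives kept the sign of the change.

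**Figure D4:**
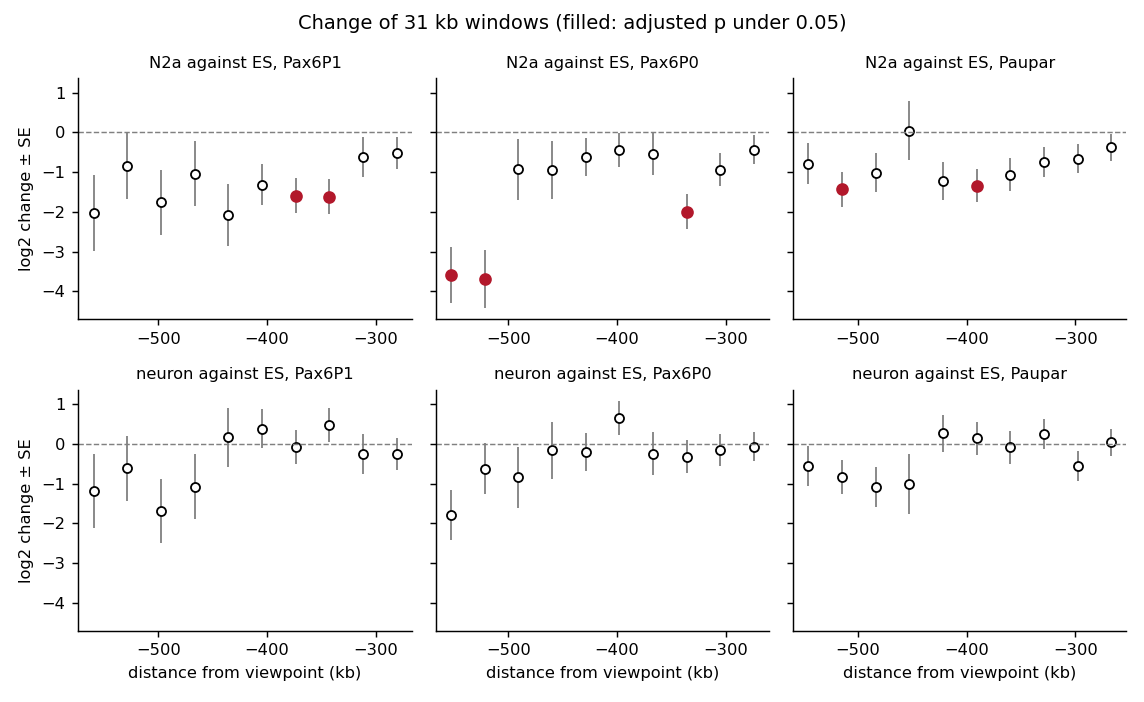
Fitted log2 change per 31 kb window with its SE (edgeR), N2a against ES above and neuron against ES below, against the distance of the window's centre from the viewpoint (kb); filled points have an adjusted p under 0.05. The 7 filled points are all in N2a against ES and all below 0, and the 3 over Wt1, at -3.59 and -3.70 from Pax6P0 and -1.44 from Paupar, rest on ES values that chose the stretch.

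In 5 kb windows the spread between libraries was wider, with a coefficient of variation of 66.5% to 71.0% against 35.2% to 43.7% in 31 kb windows. Of the 186 windows of the stretch, again summed over the 3 viewpoints, 180 had enough reads to be tested. In N2a against ES 1 of them fell, where 0.913% of all 986 windows changed and 0.71% fell. It was chr2:105130000-105134999 within Wt1, seen from Pax6P0, with 2 and 3 reads in N2a, 10 and 19 in neurons, 5 and 15 in NSC, and 115 and 87 in ES. The fitted log2 change was -5.06 (SE 1.29), and the ES mean was 27.6 times the N2a mean when each N2a library was taken at 3 reads. It was not past the threshold without N2a library 1, at -5.11, N2a library 2, at -4.99, ES library 1, at -5.42, or ES library 2, at -4.57. The same held with TMM factors, at -4.72, with reads within 1 Mb as the total, at -4.89, and with the fewest reads, at -4.03.

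From the other viewpoints that window did not pass. Its share from Pax6P1 was 0.00748% and 0.323% in N2a, 0.114% and 0.0425% in neurons, 0.182% and 0.0957% in NSC, and 0.206% and 0.318% in ES. Of the 137 reads of N2a library 2, 83 lay on the fragment 105131975 to 105132703 and 48 on the next, 105132706 to 105133210. From Paupar its share was 0.0224% and 0.0146% in N2a, 0.0564% and 0.0432% in neurons, 0.115% and 0.0305% in NSC, and 0.178% and 0.142% in ES, with N2a the lowest of the 8 libraries.

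None of the 180 windows of 5 kb passed in edgeR in N2a against NSC, where 0.913% of all windows changed and 0.811% fell. Of the 180, 28 had an unadjusted p under 0.05, beside 171 of all 986. None passed in neurons against ES or in neurons against NSC, as in 0% of all windows. At an unadjusted p under 0.05 there were 4 and 5, beside 42 and 34 of all 986. DESeq2 called 1 window in N2a against NSC and 0 in either neuron comparison. The windows that hold the lower end of Wt1 or any of Rcn1 did not pass in any comparison in edgeR.

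Without a test, both N2a libraries lay below both ES libraries in 25 of the 30 windows of 31 kb summed over the 3 viewpoints. They lay above them in none, and over all windows these shares were 48.9% and 10.5%. Both neuron libraries lay below both ES libraries in 13 of 30, where 17.4% of all windows did, and above them in 4, where 28.4% did. The ES libraries were high over Wt1 by the choice of the stretch, so these counts are not independent of that choice. Over Them7 the mean share was 0.912 to 1.10 of that in ES in neurons and 0.400 to 0.519 in N2a. Counts against NSC, which was low over Wt1 by the same choice, share that limit. Both N2a libraries lay below both NSC libraries in 12 of 30, against 41.1% of all windows, and above them in 1, against 5.79%. Both neuron libraries lay below both NSC libraries in 1 of 30, against 14.2%, and above them in 5, against 15.3%. In NSC against ES, the comparison that chose the stretch, both libraries were lower in 16 of 30 and higher in 3, beside 17.9% and 24.2% of all windows.

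The windows of 5 kb with the highest mean share over the 8 libraries lay over Them7 and Rcn1. From Pax6P1 the first was chr2:105395000-105399999 at the end of Rcn1, with 0.0711% and 0.134% in N2a, 0.122% and 0.334% in neurons, 0.409% and 0.319% in NSC, and 0.162% and 0.127% in ES. Both NSC libraries and neuron library 2 held the most there. From Pax6P0 the first was chr2:105285000-105289999 over Them7, with 0.0157% and 0.583% in N2a, 0.165% and 0.127% in neurons, 0.126% and 0.148% in NSC, and 0.124% and 0.152% in ES, so that N2a library 2 alone set its rank. From Paupar the first was chr2:105305000-105309999, also over Them7, with 0.381% and 0.0825% in N2a, 0.310% and 0.0720% in neurons, 0.134% and 0.108% in NSC, and 0.244% and 0.0859% in ES. The 2 libraries of N2a, of neurons and of ES differed there by more than the cell-type means did.

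The next windows by mean share from Pax6P1 began at 105390000 over Rcn1 and at 105330000 over Them7, with means over the 8 libraries of 0.172% and 0.166%. From Pax6P0 they began at 105320000 and 105300000, both over Them7, with 0.175% and 0.168%. From Paupar they began at 105335000 over Them7 and at 105395000 over Rcn1, with 0.169% and 0.166%. At the borders of the stretch, the windows just inside it held means of 0.0478% from Pax6P1, 0.0398% from Pax6P0 and 0.0880% from Paupar at the Wt1 end, and those just outside held 0.0720%, 0.116% and 0.0218%. At the Rcn1 end the windows just inside held 0.0574%, 0.0818% and 0.0481%, and those just outside 0.114%, 0.143% and 0.123%.

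The authors' own statistics marked some single fragments of the stretch, and the share marked over all listed fragments was not computed. In the authors' deposited tables, 19 of the 8348 listed entries of the stretch had a q-value under 0.05, in 11 of the 24 files, and they fell on 17 distinct fragments. By cell type they numbered 11 of 1587 entries in N2a, 3 of 2238 in neurons, 1 of 1901 in NSC and 4 of 2622 in ES. These counts describe the stretch alone. Some of them were adjacent fragments with nearly equal counts in 1 file, so the entries are not separate sites. In N2a library 2, adjacent fragments from 105101585 held 81 and 81 reads from Paupar. Those from 105288270 held 80, 79 and 79 from Pax6P0. One fragment passed in more than 1 file, 105333349 to 105335541 in Them7, which is 2193 bp wide. In the authors' deposited tables its q-values were 5.68e-14 in ES library 1 and 0.0115 in NSC library 2 from Pax6P0, and 4.58e-06 in ES library 1 from Pax6P1. It held 23 and 1 reads in N2a, 2 and 0 in neurons, 0 and 63 in NSC, and 152 and 2 in ES from Pax6P0, so the 2 libraries of NSC and of ES differed widely. The lowest q-value over Wt1 in the authors' deposited tables, 1.97e-10, belonged to the fragment from 105131975 in N2a library 2 from Pax6P1.

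The fragment with the Wt1os promoter printed above was listed in 15 of the 24 files. It held 63 reads in ES library 1 from Pax6P0 and 1 read in ES library 2, and at most 13 reads in any other file. From Paupar it held 0 and 3 reads in N2a, 13 and 2 in neurons, 0 and 10 in NSC, and 5 and 3 in ES. The fragments of the Them7 promoter held at most 10 reads in a file together. Neither promoter was read deeply enough for a comparison between cell types.

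The 3 viewpoints, which lie within 13.714 kb of each other, saw the stretch at similar mean shares. Over the 8 libraries, the mean log2 ratio of shares was -0.09 for Pax6P1 over Paupar (SE 0.09) and -0.0039 for Pax6P0 over Paupar (SE 0.05). For Pax6P1 over Pax6P0 it was -0.08 (SE 0.08). No p-value is given for these means, because the NSC and ES reads from Paupar also chose the stretch. The ratios of single libraries ran between 0.645 and 1.12, 0.849 and 1.19, and 0.715 and 1.12. The lowest of them were those of N2a library 1 from Pax6P1.

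Set against the same distances on the other side of the viewpoints, the stretch held fewer reads in N2a, neuron and NSC libraries and about as many in ES. That downstream stretch lies over Immp1l, Dnajc24 and Dcdc5, and 686 fragments were listed in it. From Pax6P1 the ratio of stretch reads to downstream reads was 0.302 and 0.449 in N2a, 0.647 and 0.453 in neurons, 0.587 and 0.437 in NSC, and 1.04 and 1.18 in ES. From Pax6P0 it was 0.543 and 0.349 in N2a, 0.688 and 0.419 in neurons, 0.592 and 0.372 in NSC, and 1.15 and 0.938 in ES. From Paupar it was 0.455 and 0.433 in N2a, 0.694 and 0.423 in neurons, 0.543 and 0.407 in NSC, and 0.826 and 0.958 in ES. Every N2a, neuron and NSC file was below 1, and all ES ratios lay above all ratios of the other cell types.

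Both sides entered those ratios. Downstream shares were 5.52% to 8.93% in N2a, 8.75% to 10.98% in neurons, 8.27% to 11.9% in NSC and 5.35% to 7.09% in ES. Downstream shares in N2a overlapped those in ES, and downstream shares in neurons and NSC were above those in ES. Over the 8 libraries the mean log2 ratio was -0.79 from Pax6P1 (SE 0.24, lower in 6 of 8), -0.78 from Pax6P0 (SE 0.22, lower in 7 of 8) and -0.83 from Paupar (SE 0.17, lower in 8 of 8). No p-value is given for these means, because the NSC and ES libraries in them also chose the stretch.

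**Figure D5:**
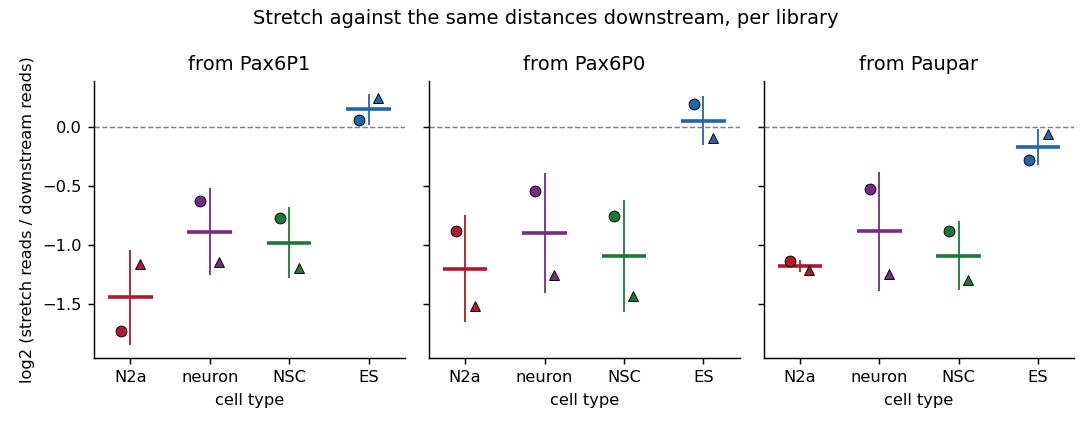
Log2 of the reads in the stretch over the reads at the same distances downstream, per library, by cell type and viewpoint, with circles for library 1, triangles for library 2, horizontal bars for the mean and vertical lines for 1 SD (n = 2); the dashed line marks equal reads. ES points lie between -0.28 and 0.24, and those of the other cell types are at most -0.53.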

How the data were processed

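Per the submitters' processing notes, Trim Galore and Bowtie were used, with mm10 as the build. How reads were given to fragments, whether duplicates were removed, which enzyme cut the DNA and which program called interactions is not given in the sources used here. As deposited, the files of the 8 libraries hold counts, whole reads per restriction fragment, with no normalization by the authors, and the authors' q-value of each fragment, which was used unchanged.

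Adjacent listed fragments often held equal counts, in 14.4% to 62.3% of neighbouring pairs over the files. Listed reads were 1.71 to 2.91 times the fewest reads that could give those counts if each read covered a run of fragments. Counts therefore may hold 1 read several times, and an alternative used the fewest reads.

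Fragments were assigned by midpoint to 5 kb and 31 kb windows on a grid that starts with the stretch. Library size was the file's chromosome 2 reads beyond 5 kb of the viewpoint centre, at 105675114 for Pax6P1, 105668438 for Pax6P0 and 105661400 for Paupar. Windows within 1 Mb that passed edgeR's filterByExpr (minimum count of 10) were fitted in edgeR 4.0.16 (R 4.3.3), with glmQLFit (robust), glmQLFTest and 1 coefficient per cell type over all 8 libraries. DESeq2 1.42.0, TMM factors, no filter, reads within 1 Mb as library size, 10 kb windows, windows counted from the viewpoint, a replicate block and leaving out each library were alternatives. The fit was tested on simulated data. Gene positions and promoter sequences are from RefSeq (GRCm38.p6), whose promoter table gave 2 of the 4 genes of the stretch. Named windows were those past 0.05, those over the lower end of Wt1 or Rcn1, and the 3 with the highest mean share per viewpoint. The members, windows and comparisons were chosen with earlier results of these data known.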

Additional observations from a re-analysis of the deposited data

Results flagged for a closer look

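From Pax6P1, the ratio of the stretch to the same distances downstream had opposite signs in ES and in the other cell types: both ES libraries were above 0 on the log2 scale and both libraries of each other type below. The difference of the means was -1.59 for N2a minus ES (-1.44 in N2a and 0.15 in ES), -1.03 for neuron minus ES (-0.89 in neurons) and -1.13 for NSC minus ES (-0.98 in NSC), and it was not tested.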

How the results depend on the processing

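In 31 kb windows, the 7 calls of N2a against ES became 3 with TMM factors and 3 in DESeq2. Over all 190 windows 20 and 33 then changed, 11 and 12 of them lower. The 4 calls of N2a against NSC became 2 with TMM factors and 2 with reads within 1 Mb as library size. Over all windows from Pax6P1, Pax6P0 and Paupar, 8, 5 and 5 changed with TMM factors and 6, 3 and 7 with reads within 1 Mb. All these calls of N2a in the stretch were lower. A fit without 1 library leaves a cell type with 1 library, so its calls are not counted here. The number of calls then changed in each comparison. In N2a against ES the fewest passed without ES library 1 and without ES library 2. In 5 kb windows, the 1 call of N2a against ES became 6 in DESeq2 (5 lower), 2 without a filter and 8 in 10 kb windows. It became 0 with reads within 1 Mb, with the fewest reads and in windows counted from the viewpoint. Over all windows from Pax6P1, Pax6P0 and Paupar, 10, 15 and 10 changed in DESeq2. With TMM factors there was also 1 call, a higher one from Paupar, where 10 of all windows changed. The 0 calls of N2a against NSC became 1 in DESeq2 (0 lower) and 3 in 10 kb windows. Over all windows from the same viewpoints, 6, 5 and 4 changed in DESeq2. No count over all windows is given for 10 kb windows or without a filter, so those calls describe the stretch alone. The calls of N2a also changed in number without 1 library. Neurons against ES or NSC had 0 calls in 5 kb windows in every alternative run. The cause of these shifts was not tested.

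With the replicate number as a block there were 2 calls in 5 kb windows and 10 in 31 kb windows of N2a against ES. In 31 kb windows 37 of all 190 then changed, 34 of them lower. In N2a against NSC there were 0 and 5 calls. No count over all windows is given for these or for the 2 calls of N2a against ES, so they describe the stretch alone. Deviations of same-numbered libraries correlated above 0.1 in 3 of 18 pairs of cell types (range -0.05 to 0.22). These were neurons with NSC, at 0.13 from Pax6P0 and 0.22 from Paupar, and neurons with ES, at 0.16 from Paupar. The 5 kb windows used vary widely between libraries, so these values cannot tell whether the numbers pair the libraries.

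The stretch against the downstream distances had a mean log2 ratio without 1 library of -0.94 to -0.66 from Pax6P1, -0.92 to -0.68 from Pax6P0 and -0.94 to -0.76 from Paupar. For the pairs of viewpoints it was -0.12 to -0.01 for Pax6P1 over Paupar and -0.04 to 0.03 for Pax6P0 over Paupar. For Pax6P1 over Pax6P0 it was -0.12 to -0.03. The 12 window changes past the threshold in N2a kept their sign in each alternative run. Median reads per library were 21 to 26 in tested 5 kb windows and 113 to 143 in 31 kb windows, which limits what single fragments can show.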
